A study of Bos taurus with 30 samples.

Results

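Fatty acids are built in the cytosol by a short chain of enzymes, and 3 of its genes are described here in visceral adipose tissue of heifer calves: FASN (ENSBTAG00000015980), ACACA (ENSBTAG00000017567) and ACLY (ENSBTAG00000016740). They were chosen by Ensembl identifier, to which the symbols were given without a check against an annotation, among the 24596 genes listed, on the condition that the mean value over the 30 libraries was above 10, and all 3 met it with means of 17514, 1237 and 522. Values are counts per 1000000 reads (CPM) of a library whose size was adjusted by the trimmed mean of M-values (TMM).

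ATP citrate lyase, encoded by ACLY, splits citrate that has left the mitochondrion and so supplies acetyl-CoA to the cytosol. Acetyl-CoA carboxylase alpha, encoded by ACACA, turns acetyl-CoA into malonyl-CoA, the committed step of the pathway and a point of control by phosphorylation through AMP-activated protein kinase. Fatty acid synthase, encoded by FASN, is a large multifunctional protein that joins these units into palmitate with NADPH as reductant. In cattle adipose tissue is a main site of this synthesis, and once the rumen works acetate is a main source of its carbon, activated by acetyl-CoA synthetases rather than by ACLY. Transcription of these genes is known to be raised by insulin through the sterol regulatory element binding protein SREBF1 and by glucose through MLXIPL.

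All calves were Angus × Holstein-Friesian heifers, fed differentially from 2 weeks of age and sampled at 21 weeks from the omental depot. The 15 high plane (HI) calves were expected to gain 1.2 kg a day, on 10 litres of milk replacer (1.5 kg) a day with concentrates to appetite. The 15 moderate plane (MOD) calves were expected to gain 0.5 kg, on 4 litres (0.5 kg) with 1 kg of concentrates. Milk feeding ended with the calf phase of 8 weeks, and in the post-weaning phase of 11 weeks HI calves had concentrates to appetite and MOD calves 1 kg a day, with hay on both diets. Each calf gave 1 library. Calves had been allotted within blocks set by age, weight and sire, which the labels do not give. Tissue of this kind holds adipocytes, vessel, stromal and immune cells together, so that fewer cells of a type and less RNA per cell cannot be told apart. Marker genes of these cell types could not be matched to the identifiers, and the labelled tissue was therefore not checked against them.

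Libraries held from 11847883 to 19383275 reads on genes. Of the calves, 3 stood apart from the rest on the first principal component of all genes tested other than the 3 enzymes: HI calf 2120 scored 167, MOD calf 975 scored 88.6 and MOD calf 911 scored 49.4, where the other 27 calves lay between -25.5 and 9.54. Without them FASN and ACLY were still called as higher in HI, with log2 fold changes of 2.21 and 1.78 (adjusted p = 0.00425 and 0.000566, limma). TMM factors averaged 0.94 ± 0.10 in HI and 1.07 ± 0.10 in MOD calves (SD, n = 15 each), and scaling by library size alone shifted the median gene by -0.18 in log2 fold change.

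FASN was up-regulated in HI calves, and so was ACLY, whereas the higher level of ACACA in HI calves did not pass the test over all genes. The comparison asked how far an enhanced plane of nutrition in early life changes transcript levels in this tissue. Differences were tested with limma on log2(value + 0.5) over the 12738 genes whose value exceeded 1 in 15 or more libraries. Calls needed a Benjamini-Hochberg adjusted p under 0.05 together with a fold change above 1.5. Of the 3 genes 2, FASN and ACLY, were called as higher in HI, where 4.36% of all genes tested were called in that direction.

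**Figure D1:**
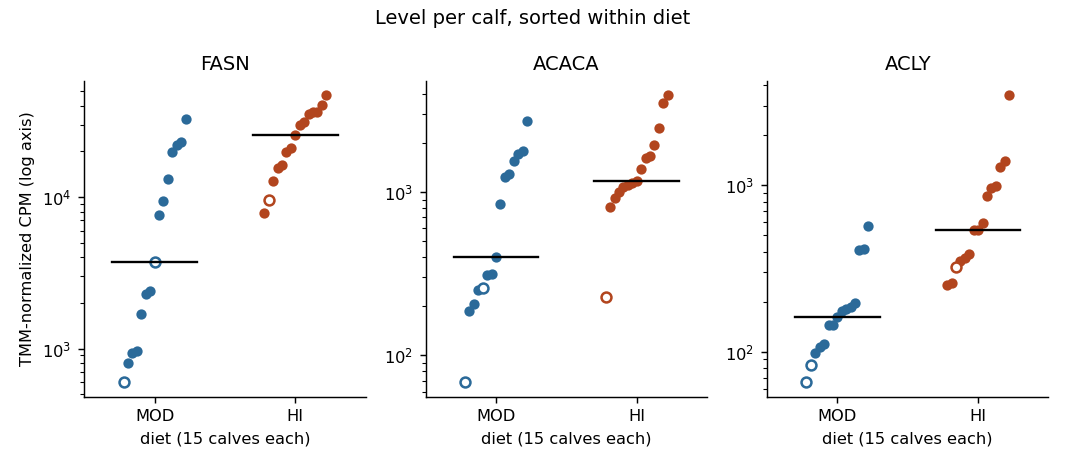
Level of FASN, ACACA and ACLY in each calf as TMM-normalized CPM on a log axis, with calves sorted within diet, the median as a line and calves 2120, 975 and 911 as open symbols. MOD calves span from 598 to 32405 for FASN, and the HI calves lie between 7842 and 46720.2.

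In HI calves the value of FASN was 7842 in the lowest calf, 25593 at the median and 46720.2 in the highest. In MOD calves it was 598 in the lowest, 3741 at the median and 32405 in the highest. All 15 HI calves lay above the MOD median and 5 lay above every MOD calf, while 9 MOD calves lay below every HI calf and the other 6 within the HI range. The mean was 25650.3 ± 12025 in HI and 9377 ± 10286 in MOD calves (SD, n = 15). On the log2 scale the difference was 2.36 (standard error 0.53, adjusted p = 0.00302, limma), a fold change of 5.14 with a 95% interval from 2.44 to 10.9. In the limma fit only 13 of the 12738 genes had a larger log2 fold change. Ranks under other tests were not taken.

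The size of this change depended on how the calves were averaged. The ratio of the mean values was 2.74, the ratio of the medians was 6.84, and tests that model counts gave a log2 fold change of 1.45 (edgeR exact test, adjusted p = 0.0121, and quasi-likelihood test, adjusted p = 0.0460) or 1.46 (DESeq2, adjusted p = 0.0116). Limma compares means of logarithms, and the count models compare means of counts, on which the highest calves weigh most. In limma the lowest and the highest MOD calf weighed alike. The log2 fold change was 2.16 without the lowest, calf 975, and 2.57 without the highest, calf 991. FASN and ACLY were called by each of these tests, and the share of all genes called as higher in HI was 4.85% with the exact test, 4.40% with the quasi-likelihood test and 5.14% with DESeq2.

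FASN also took a visible share of each library. It held from 0.64% to 3.91% of the reads counted on genes in HI calves and from 0.061% to 2.99% in MOD calves, and 124136 to 678593 reads lay behind each HI value and 9485 to 427309 behind each MOD value. By mean value, with no correction for transcript length, it ranked 2nd of all genes, and it was among the 10 genes with the highest values in 14 HI and 7 MOD calves. With libraries scaled to the reads outside the 10 most abundant genes, FASN included, its log2 fold change was 2.29 (adjusted p = 0.00340, limma).

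ACLY, which feeds acetyl-CoA into the pathway, had a value of 253 in the lowest HI calf, 541 at the HI median and 3474 in the highest. In MOD calves the lowest was 65.5, the median 162 and the highest 574. Every HI calf exceeded the MOD median and 7 of the 15 exceeded every MOD calf, and 12 of the 15 MOD calves lay below every HI calf. The mean was 840.1 ± 817 in HI and 204 ± 146 in MOD calves (SD, n = 15). In log2 units HI exceeded MOD by 1.90 (standard error 0.34, adjusted p = 0.000313, limma), a fold change of 3.72 with a 95% interval from 2.31 to 5.99, and 27 genes had a larger one. HI calf 1360 stood highest, at 3474 against 1403 in the next HI calf. The ratio of mean values, 4.12, was close to the fold change from limma, and the exact test gave a log2 fold change of 2.04 (adjusted p = 4.13e-07, edgeR).

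ACACA, the carboxylase, had a value of 228 in the lowest HI calf, 1176 at the median and 3909 in the highest. The lowest HI calf was calf 2120, and the next lowest was calf 2570 with a value of 805. In MOD calves the lowest value was 68.3, the median 399 and the highest 2725. Of the HI calves, 14 of 15 lay above the MOD median, but 12 of the 15 MOD calves lay within the HI range. That count rested on calf 2120, without which 7 of the 15 MOD calves lay within the HI range and 8 below every HI calf. The mean was 1599 ± 1009 in HI and 876 ± 798 in MOD calves (SD, n = 15). The log2 difference was 1.27 (standard error 0.45), a fold change of 2.42 with a 95% interval from 1.28 to 4.55, and 110 genes had a larger one.

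The adjusted p of ACACA was 0.0537 (limma), above the threshold of 0.05. A permutation test on ACACA alone gave p = 0.0116, unadjusted and two-sided, and the count models gave adjusted p-values from 0.114 (DESeq2) to 0.175 (edgeR quasi-likelihood). Without calves 2120, 975 and 911 the adjusted p was 0.0357 (limma) and the log2 fold change 1.14. Leaving out HI calf 2120 alone gave 1.45 with an adjusted p of 0.0151 (limma). Leaving out any single one of MOD calves 981, 991, 1057, 1395, 2346 and 2551 gave between 1.36 and 1.44 with adjusted p-values from 0.0225 to 0.0446 (limma). These MOD calves are among the 7 with the highest ACACA of their diet, so that leaving 1 out widens the difference. In the other 23 of the 30 fits without 1 calf ACACA did not pass, with adjusted p-values up to 0.0919 (limma).

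**Figure D2:**
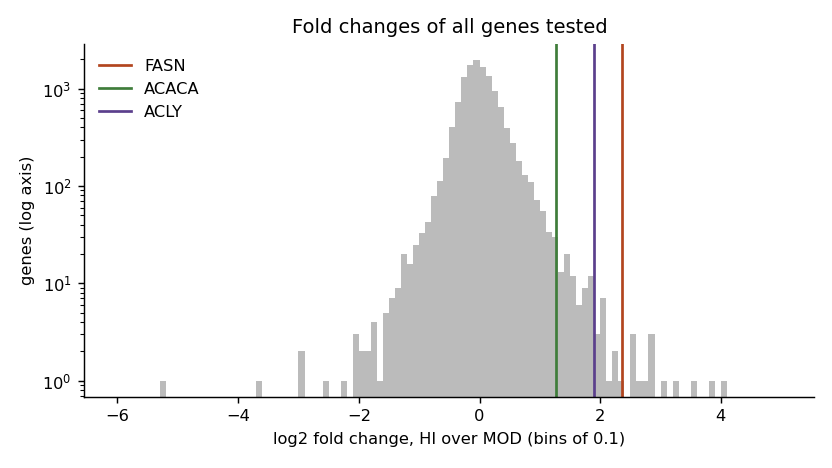
Log2 fold change, HI over MOD, of all 12738 genes tested in bins of 0.1, with the number of genes on a log axis. Vertical lines mark ACACA at 1.27, ACLY at 1.90 and FASN at 2.36, of which ACACA did not pass the test.

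Reads on ACACA may carry an uncertainty that those on ACLY do not, though overlaps in the annotation used for counting were not examined. In the RefSeq annotation of the ARS-UCD2.0 assembly, which is not the UMD3.1 build the reads were aligned to, ACACA overlaps the protein coding gene C19H17orf78 as well as a long non-coding and a small nuclear RNA gene, FASN overlaps the microRNA gene MIR10179, and ACLY overlaps no listed gene. The libraries kept strand, but the strand setting of the counts is not given in the sources used here. How reads were counted where genes overlap is therefore not known.

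Because a ratio of genes within a library does not change with the scaling of that library, the genes were also compared as ratios within each calf. The FASN to ACACA ratio was higher in HI calves. It was 9.74 in the lowest HI calf, 16.4 at the median and 41.9 in the highest, against 3.001, 8.43 and 19.0 in MOD calves. All 15 HI calves lay above the MOD median. The difference was 1.09 on the log2 scale (standard error 0.25), or 2.13-fold, with p = 0.00016 and 0.00048 after adjustment over the 3 ratios (two-sided permutation test of 100000 resamples). FASN and ACACA thus differed in the size of their change with diet.

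**Figure D3:**
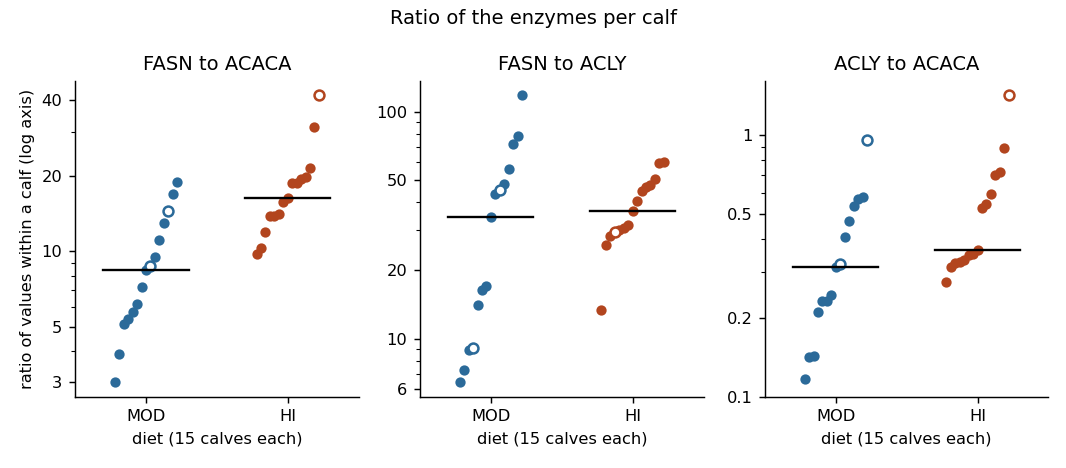
Ratio of the values of each pair of enzymes within a calf on a log axis, with the median as a line and calves 2120, 975 and 911 as open symbols. The FASN to ACACA ratio is above the MOD median in all 15 HI calves, and the FASN to ACLY ratio spans from 6.42 to 118 in MOD and from 13.4 to 59.8 in HI calves.

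The FASN to ACLY ratio was 13.4 in the lowest HI calf, 36.5 at the median and 59.8 in the highest, and the MOD values of 6.42, 34.3 and 118 lay on both sides of these. The mean log2 difference was 0.47 (standard error 0.38, permutation p = 0.232, also 0.232 after adjustment), with an SD of 1.38 in MOD and 0.55 in HI calves. A difference between the mean changes of FASN and ACLY was thus not detected, which does not show that they were equal. The order of these 2 genes by fold change was FASN over ACLY with limma and ACLY over FASN with the count models.

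The ACLY to ACACA ratio was 0.36 at the HI median and 0.31 at the MOD median, with ranges from 0.27 to 1.42 and from 0.12 to 0.96. The log2 difference of 0.62 (standard error 0.29) had p = 0.0378 and 0.0567 after adjustment over the 3 ratios (permutation test). It passed the threshold without calves 2120, 975 and 911, with a difference of 0.64 and an adjusted p of 0.0339 in the same permutation test, and in 9 of the 30 fits that left out 1 calf.

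MOD calves differed among themselves more than HI calves did for FASN. Its highest MOD value was 54.2 times the lowest, against 5.96 times in HI calves, and the SD of the log2 value was 2.00 in MOD and 0.79 in HI. The mean distance of a calf from the median of its diet was larger in MOD by 1.10 on the log2 scale (two-sided permutation test, p = 0.00026, 0.00078 after adjustment over the 3 genes). In only 21 of the 12738 genes was the MOD SD larger than that of FASN. Over all genes tested the median SD was 0.40 in MOD and 0.44 in HI calves, and 40.3% of genes had the larger SD in MOD.

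ACACA had a log2 SD of 1.55 in MOD and 0.98 in HI calves. Its mean distance from the median was larger in MOD by 0.66 (permutation p = 0.031, 0.0465 after adjustment), but with libraries scaled by size alone the adjusted p was 0.0782 in the same permutation test, and with 1 calf left out it missed the threshold in 18 of 30 fits. ACLY had a log2 SD of 0.88 in MOD and 1.06 in HI calves, and the difference in distance of -0.18 did not pass the test (permutation p = 0.441). The spread of FASN moved with diet by 1.28 more than that of ACLY (permutation p = 7e-05, adjusted p = 0.00021), and the spread of ACACA by 0.84 more than that of ACLY (permutation p = 0.00168, adjusted p = 0.00252). Between FASN and ACACA this difference was 0.44 (permutation p = 0.0841). These 3 differences were tested after the spreads had been seen.

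The levels of the 3 genes rose and fell together across calves of the same diet. In HI calves Pearson's r on the log2 scale was 0.82 between FASN and ACACA (permutation p = 3e-05), 0.86 between FASN and ACLY (permutation p = 4e-05) and 0.78 between ACLY and ACACA (permutation p = 0.00087), with n = 15 each. Spearman's rho was 0.91, 0.90 and 0.88 for the same pairs, with permutation p-values of 1e-05, the smallest that 100000 resamples can give, 3e-05 and 3e-05. Adjusted over the 6 correlations of both diets, the p-values of r were 6e-05, 6e-05 and 0.00087 and the largest of rho in HI was 3.6e-05 (permutation tests). Without the 2 calves farthest from the median of the first named gene, r was 0.80, 0.88 and 0.71.

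**Figure D4:**
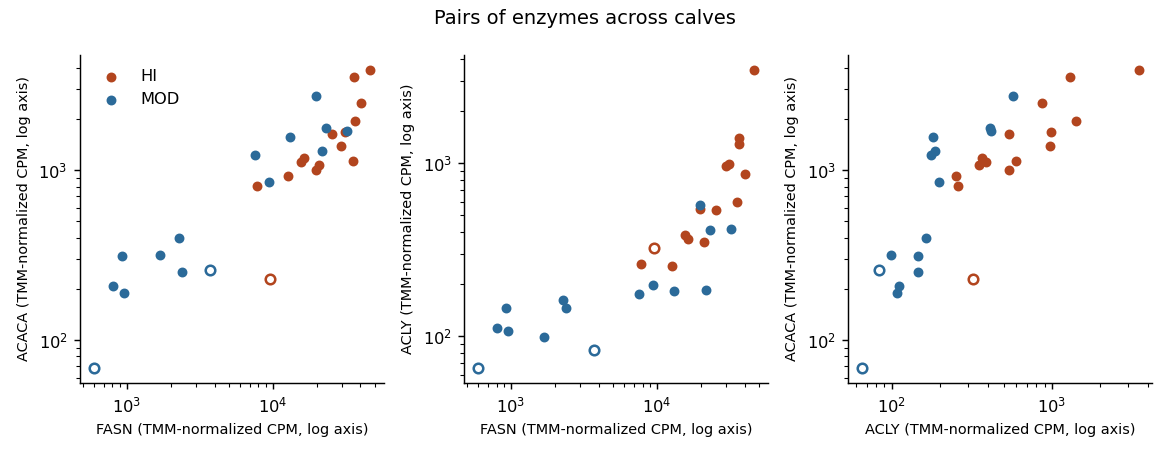
Values of each pair of enzymes across calves on log axes, 1 point per calf, with calves 2120, 975 and 911 as open symbols. Points of both diets rise from lower left to upper right, and at values of FASN up to 32405 the MOD calves reach at most 574 for ACLY.

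In MOD calves r was 0.94 between FASN and ACACA, 0.82 between FASN and ACLY and 0.89 between ACLY and ACACA (n = 15 each, permutation p = 1e-05, 5e-05 and 1e-05). Spearman's rho was 0.89, 0.84 and 0.90 (permutation p = 2e-05, 0.00017 and 2e-05), and adjusted over the 6 correlations the p-values of r were 3e-05, 6e-05 and 3e-05 and those of rho 3.6e-05, 0.00017 and 3.6e-05 (permutation tests). Without the 2 calves farthest from the median, r was 0.93, 0.74 and 0.86.

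The same 7 MOD calves, calves 981, 991, 1057, 1082, 1395, 2346 and 2551, had the 7 highest MOD values of each of the 3 genes. They ranged from 7601 to 32405 for FASN, from 850.5 to 2725 for ACACA and from 175 to 574 for ACLY. The other 8 MOD calves ranged from 598 to 3741, from 68.3 to 399 and from 65.5 to 162. The FASN to ACLY ratio lay from 34.3 to 118 in the 7 and from 6.42 to 45.1 in the other 8. This is a description only, since the calves were divided by these levels. The step between the 7th and the 8th calf was 1.02 on the log2 scale for FASN, the widest in the MOD order, and 1.09 for ACACA, second to a step of 1.45 above the lowest calf, calf 975. For ACLY it was 0.11, and 7 other steps in the MOD order were wider, the widest 1.06.

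Within these 7 calves r was 0.59 between FASN and ACACA, 0.67 between FASN and ACLY and 0.81 between ACLY and ACACA, and within the other 8 it was 0.64, 0.27 and 0.76. Exact permutation tests of these 6 correlations gave adjusted p-values from 0.0574 to 0.510, and the values are given only as a description. The calves were divided by the levels of the same 3 genes, which narrows the range within each set and lowers r whatever the relation, and each set holds few calves, so the part that the distance between the sets has in the MOD correlations was not tested.

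To see which other genes varied with the 3, diet means were removed and each gene was correlated with the others over all 30 calves. This is a description over libraries that share their scaling, and no test was made. Only means were removed, so calves of the diet with the larger log2 SD weighed more. That was MOD for FASN (2.00 against 0.79) and ACACA (1.55 against 0.98), and HI for ACLY (1.06 against 0.88). By likeness to FASN, ACACA ranked 23rd of 12737 genes (r = 0.90) and ACLY 264th (r = 0.73). By likeness to ACACA, FASN ranked 26th and ACLY 218th (r = 0.80), and by likeness to ACLY, ACACA ranked 23rd and FASN 111th. The ranks that involve ACLY moved when calves 2120, 975 and 911 were left out. ACLY then ranked 790th by likeness to FASN (r = 0.70) and 599th by likeness to ACACA (r = 0.78), and by likeness to ACLY, ACACA ranked 130th and FASN 498th. ACACA kept rank 23 by likeness to FASN (r = 0.92), and FASN ranked 42nd by likeness to ACACA.

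The ranks also differed between the diets. Within HI calves ACLY ranked 8th and ACACA 27th by likeness to FASN, whereas FASN ranked 293rd and ACLY 630th by likeness to ACACA, and FASN 10th and ACACA 71st by likeness to ACLY. Within MOD calves ACACA ranked 34th and ACLY 357th by likeness to FASN, FASN 42nd and ACLY 167th by likeness to ACACA, and ACACA 49th and FASN 249th by likeness to ACLY.

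The genes most like the mean of the 3 over all 30 calves were ENSBTAG00000001932 and ENSBTAG00000006832, both with r = 0.94. Within HI calves they ranked 19th and 10th (r = 0.88 and 0.89), and within MOD calves 3rd and 5th (both r = 0.97). Without calves 2120, 975 and 911 they ranked 13th and 5th (r = 0.93 and 0.94), so that the first named was no longer among the 10 most alike. The former was up-regulated in HI calves from a mean value of 443 ± 237 to 795 ± 313 (SD, n = 15, log2 fold change 0.96, standard error 0.25, adjusted p = 0.0101, limma), and the latter from 31.4 ± 21.5 to 62.6 ± 33.7 (log2 fold change 1.13, standard error 0.28, adjusted p = 0.00675, limma). Of the 10 genes most like the mean, 3 were among the 10 found without calves 2120, 975 and 911. The 10 found in HI and the 10 found in MOD calves had 1 gene in common.

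**Figure D5:**
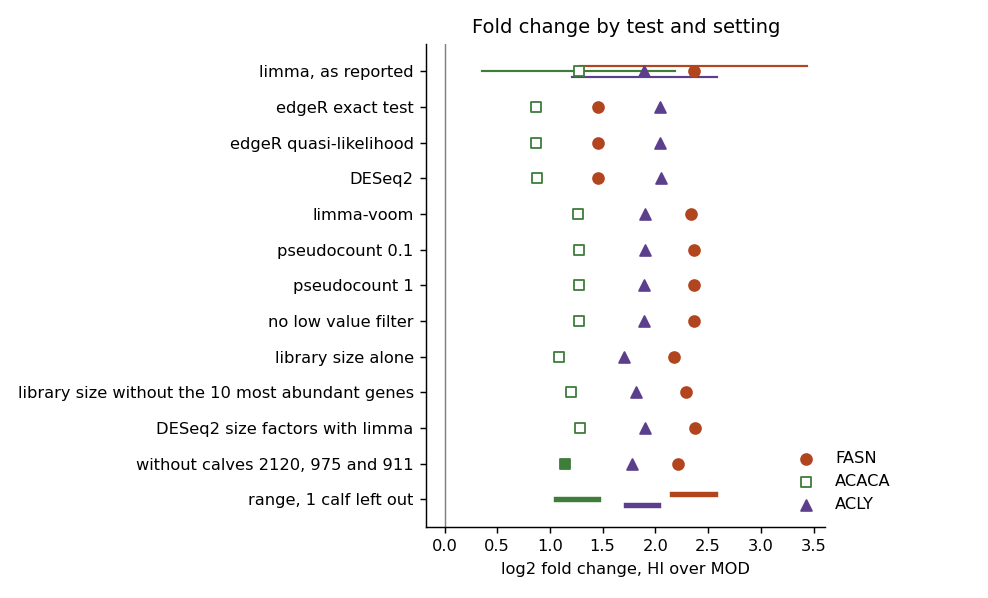
Log2 fold change, HI over MOD, of FASN, ACACA and ACLY under each test, scaling, filter and pseudocount. Filled symbols passed the thresholds, thin lines in the top row are 95% intervals from limma, and thick bars at the bottom are the range with 1 calf left out, which for FASN runs from 2.16 to 2.57.

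Across the scalings FASN and ACLY changed in the same direction and passed the test. With library size alone the log2 fold change was 2.17 for FASN, 1.08 for ACACA and 1.71 for ACLY, where the median gene stood at -0.19, and with the deposited normalization the median gene stood at -0.018.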

How the data were processed

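Visceral adipose RNA of 15 HI and 15 MOD calves was sequenced, 1 library for each calf. Reads were trimmed by the authors with Cutadapt, aligned to UMD3.1 with STAR, counted per gene and normalized by TMM in edgeR. Per the submitters' processing notes the versions were Cutadapt 2.6, STAR 2.6.1 and edgeR 3.5. The paper gives a different version for each of these tools. The authors deposited a signal per gene and library, the read count per 1000000 reads of the TMM-adjusted library, with no filter on low values. Whole reads were recovered as multiples of the worth of 1 read, and 100% of values came out whole within 0.01 of a read. Their number limits precision only for genes with few reads.

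Limma 3.58.1 (R 4.3.3) with a variance trend was the main test, because the deposited values are normalized, and edgeR 4.0.16 (exact and quasi-likelihood), DESeq2 1.42.0 and limma-voom were run on the recovered reads. All were tested on simulated counts with the same dispersion for every gene and no calves set apart. A spread like that of FASN in MOD calves was therefore not covered. Ratios, spreads and correlations used permutation tests of 100000 resamples, and correlations within the 7 and the 8 MOD calves used every order of the calves. The 3 genes, the lists and the tests were chosen with earlier results of these data known, and the split of MOD calves and the tests between spreads after these values were seen. Names of the 3 genes were given with their identifiers; no table used here pairs other identifiers with symbols, so 154 pathway and marker symbols were not analysed here, nor were sequences. The rule for other named genes was likeness to the mean of the 3, of which at most 2 are printed. Alternatives are given in the closing section.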

Additional observations from a re-analysis of the deposited data

How the results depend on the processing

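FASN and ACLY were higher in HI calves and past the thresholds under all 13 other settings tried and with each of the 30 calves left out, with log2 fold changes from 1.45 to 2.57 and from 1.71 to 2.05. The permutation test of each gene alone is among these settings and was judged on an unadjusted p. ACACA was higher in HI calves in all the settings and fits, from 0.87 to 1.45. It passed without calves 2120, 975 and 911 (1.14) and in 7 of the 30 fits without 1 calf, which ranged from 1.06 to 1.45. Permutation of ACACA alone (1.27) gave a p under 0.05, but unadjusted, which is not the threshold over all genes. The ACLY to ACACA ratio passed without those 3 calves (0.64) and in 9 of the 30 fits (without HI calf 986, 2535, 2570 or 3148, or MOD calf 975, 1689, 1690, 2532 or 2537; 0.51 to 0.74 over the 30), and the larger spread of ACACA in MOD was lost with library size alone (0.62) and in 18 of the 30 (without HI calf 986, 1048, 1050, 1388, 1531, 1707, 2528, 2535, 2570, 3148 or 3620, or MOD calf 981, 991, 1057, 1082, 1395, 2346 or 2551; 0.56 to 0.78). The causes were not tested. The MOD correlations between ACLY and ACACA, FASN and ACACA, and FASN and ACLY were 0.81, 0.59 and 0.67 in the 7 highest calves and 0.76, 0.64 and 0.27 in the 8 lowest. These 6 values say nothing about stability, since the calves were divided by the levels of the same genes, which narrows their range, and each set is small. The other ratios, spreads and correlations stayed on their side of the threshold under the pseudocounts, the scaling and each calf left out.

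Limma called 856 genes, 556 higher and 300 lower in HI (65.0% higher), and with 1 calf left out from 721 to 984. A fold change above 2 left 293, of which 201 were higher and 92 lower, and library size alone gave 351 higher and 779 lower (31.1% higher). The planned counts for pathway genes were not run, since their names could not be matched. No paired analysis was possible because the labels give neither the blocks nor a number shared by calves of both diets.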

Other observations

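The 7 MOD calves with the highest FASN, ACACA and ACLY also lay apart from the other MOD calves on the second principal component of the other genes. This component, computed without the 3 enzymes, held 20.04% of the variance. In MOD calves 102 of 12737 genes had r above 0.9 with FASN, and 125 with ACACA. The component is therefore not independent of how the 7 calves were chosen. The 7 MOD calves scored from -8.55 to 25.7, against -51.7 to -28.5 in the other 8 MOD calves and -6.58 to 41.0 in HI calves. On the first component, with 36.7% of the variance, the 7 scored from -25.5 to 9.54 and the other 8 from -20.4 to 88.6, so these overlapped. No other measure of these calves was analysed here, and the split was seen in the values, so no test was made between the 7 and the 8.

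HI calf 2120 had the lowest ACACA of the HI calves but the highest ACLY to ACACA ratio (1.42) and FASN to ACACA ratio (41.9) of all 30 calves. MOD calf 975 had the lowest value of each of the 3 genes among all calves and the highest ACLY to ACACA ratio of the MOD calves (0.96).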
